A study of Mus musculus with 4 samples.

Results

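Small nucleolar RNAs (snoRNAs) and small Cajal body RNAs (scaRNAs) were examined in sorted dural immune cells of mice given AAV-mVEGF-C or AAV-CTRL. Members were the genes named Snord, Snora or Scarna followed by a number that had 10 or more reads summed over the 4 libraries. There were 118 such genes among 150 of these names and 55401 genes in the table, namely 68 C/D box snoRNAs (Snord), 41 H/ACA box snoRNAs (Snora) and 9 scaRNAs (Scarna).

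The cells were CD45+ immune cells sorted by flow cytometry from the dura mater, the outer membrane around the brain, of wild-type C57BL/6J mice. At 4 wk of age the mice had received 2 µl of adeno-associated virus serotype 9 into the cisterna magna, the fluid space below the cerebellum. AAV-mVEGF-C encodes full-length mouse VEGF-C, a growth factor for lymphatic vessels, and AAV-CTRL encodes an Ig fusion of VEGFR-3 domains that do not bind VEGF-C. Each group had 2 libraries of total RNA, and each library came from a pool of 10 to 12 mice. The labels name wild-type mice and no transgene. A library is thus a pool of animals and not a single mouse, the vector's promoter and the cells it entered in the dura are not given in the sources used here, and the interval from injection to sorting is not stated for these libraries.

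SnoRNAs guide the chemical modification of other RNAs by base pairing. C/D box snoRNAs carry the short motifs box C and box D and direct 2'-O-methylation with the methyltransferase fibrillarin, and H/ACA box snoRNAs end in an ACA motif and direct the conversion of uridine to pseudouridine with dyskerin. Most targets are in ribosomal RNA, whereas scaRNAs reside in Cajal bodies and act on the small nuclear RNAs of the spliceosome. In mammals most of these RNAs are cut out of introns of host genes, many of which encode ribosomal proteins or are noncoding RNAs of the Snhg family.

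The sequences below are those of members on which the results turn: short C/D box members among those with the smallest p-values of their class (Snord80, Snord99), a pair from one host gene, Rpl13a (Snord32a, Snord33), H/ACA box members with the smallest p-values (Snora81, Snora23, Snora7a), and a short and a long scaRNA that differed in their spread (Scarna3a, Scarna6). They are from GENCODE M21 on GRCm38, printed 5' to 3'. Capitals mark the first match to box C (ATGATGA or GTGATGA) within the first 30 bases and the last match to box D (CTGA) within the last 20 bases for Snord, the last ACA within the last 10 bases for Snora, and any of these for Scarna.
Snord80: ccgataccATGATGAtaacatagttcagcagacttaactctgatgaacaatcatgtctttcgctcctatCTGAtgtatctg
Snord99: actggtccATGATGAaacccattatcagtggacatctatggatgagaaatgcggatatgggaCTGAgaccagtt
Snord32a: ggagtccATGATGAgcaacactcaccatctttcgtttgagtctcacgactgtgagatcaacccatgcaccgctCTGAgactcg
Snord33: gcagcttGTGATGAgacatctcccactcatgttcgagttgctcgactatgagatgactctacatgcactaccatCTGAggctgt
Snora81: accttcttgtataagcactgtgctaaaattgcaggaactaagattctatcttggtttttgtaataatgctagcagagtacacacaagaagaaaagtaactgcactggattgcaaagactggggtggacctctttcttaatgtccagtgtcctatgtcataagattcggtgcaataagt
Snora23: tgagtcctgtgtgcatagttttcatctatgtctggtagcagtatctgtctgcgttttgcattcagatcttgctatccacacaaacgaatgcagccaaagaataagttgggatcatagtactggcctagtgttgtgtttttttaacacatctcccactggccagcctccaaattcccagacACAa
Snora7a: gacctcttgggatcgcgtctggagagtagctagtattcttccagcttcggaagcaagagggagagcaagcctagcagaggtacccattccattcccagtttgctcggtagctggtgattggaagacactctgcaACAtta
Scarna3a: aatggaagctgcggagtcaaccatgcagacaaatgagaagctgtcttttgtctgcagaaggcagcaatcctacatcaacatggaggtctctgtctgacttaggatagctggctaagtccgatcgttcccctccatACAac
Scarna6: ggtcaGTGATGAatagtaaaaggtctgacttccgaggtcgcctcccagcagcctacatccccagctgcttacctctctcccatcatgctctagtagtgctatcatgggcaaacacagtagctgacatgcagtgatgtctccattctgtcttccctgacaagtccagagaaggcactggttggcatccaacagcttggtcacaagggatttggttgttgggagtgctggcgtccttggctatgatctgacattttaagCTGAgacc

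Snord80 lies at chr1:161037601-161037681 (plus strand) in the noncoding host Gas5, and Snord99 lies at chr4:132310691-132310764 (plus strand) in Snhg12. Snord32a is at chr7:45127382-45127464 and Snord33 at chr7:45126864-45126947, both on the minus strand of chromosome 7 within Rpl13a, the gene of a protein of the large ribosomal subunit. Snora81 is at chr16:23110756-23110933 (plus strand) within Eif4a2, the gene of an RNA helicase used in translation initiation, and no ACA fell in its last 10 annotated bases. Snora23 is at chr7:110046364-110046547 (plus strand) in an intron of Ipo7, the gene of a nuclear import receptor, and Snora7a is at chr6:115807975-115808114 (minus strand) within Rpl32. Scarna3a is at chr1:159340283-159340422 (plus strand) in an intron of Cop1, and Scarna6 at chr1:87784556-87784820 (plus strand) in an intron of Atg16l1.

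Across the members, box C and box D were both found in 64.7% of the C/D box genes and in 0% of the H/ACA box genes. ACA was found near the 3' end of 95.1% of the H/ACA box genes and 11.8% of the C/D box genes. These shares describe the annotated sequences, and a missing motif says only that these letters were not in the window. Members were 64 to 414 bases long, with a median of 80.5 bases for C/D box, 133.0 bases for H/ACA box and 140.0 bases for scaRNA genes. By the annotation, 109 of 118 members lay within a host gene on the same strand, 54 in introns alone and 55 overlapping an exon of some host transcript. Reads of these 55 cannot be told apart from reads of the host's RNA. Whether reads of the other 54 can be was not tested, since the libraries were of total RNA.

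The libraries held 46409685 and 33336026 reads on genes for AAV-CTRL 1 and 2, and 38051943 and 32520649 for AAV-mVEGF-C 1 and 2. Genes with 1 or more reads numbered 20990, 32488, 37512 and 29221 in the same order, so AAV-CTRL 1, the deepest library, stood apart with the fewest genes. All 5 leukocyte markers were detected, with Ptprc, which encodes CD45, at 945 to 1150 CPM (TMM-scaled reads per 1000000 reads). The 4 fibroblast markers summed to 626 and 1007 CPM in the controls and 338 and 528 CPM after AAV-mVEGF-C, and the 4 globin genes of red cells to 115 and 141 CPM against 25.5 and 47.2 CPM. The 3 endothelial markers summed to 55.5 and 64.7 CPM in the controls and 49.4 and 49.1 CPM after AAV-mVEGF-C. The 3 osteoblast markers ranged from 0.939 to 4.85 summed CPM, and the 3 neuronal markers from 2.83 to 6.86. The 4 nuclear RNAs on the marker list, led by Malat1 and Rn7sk, summed to 18573 to 19485 CPM. The part of these cells in the results below was not tested. In bulk samples, fewer cells of a type and less RNA per cell cannot be told apart.

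C/D box RNAs took a larger share of reads in both AAV-mVEGF-C libraries than in either AAV-CTRL library. Their share of all reads on genes came to 0.0516% (AAV-CTRL 1), 0.110% (AAV-CTRL 2), 0.153% (AAV-mVEGF-C 1) and 0.122% (AAV-mVEGF-C 2). The groups did not overlap, but AAV-CTRL 2 lay closer to AAV-mVEGF-C 2 than to AAV-CTRL 1. The group means were 0.0806% ± 0.0409 and 0.138% ± 0.0223 (SD, n = 2 each), a ratio of 1.71. An exact two-sided permutation test gave p = 0.333, the smallest p that 2 against 2 libraries allow.

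H/ACA box RNAs had the same order, with shares of 0.0108%, 0.0233%, 0.0434% and 0.0289% (AAV-CTRL 1 and 2, then AAV-mVEGF-C 1 and 2). The means were 0.0171% ± 0.00885 and 0.0361% ± 0.0103 (SD, n = 2 each), a ratio of 2.12 (exact two-sided permutation p = 0.333). The scaRNA share did not separate the groups. It was 0.0389%, 0.0557%, 0.0464% and 0.0530%, with means of 0.0473% ± 0.0119 and 0.0497% ± 0.00460 (SD, n = 2 each; exact two-sided permutation p = 1.0). On the share of TPM, the scaRNA difference turned to -0.0304 percentage points. The widest 95% Wilson interval reached 2.77% of its share to either side and covers counting error only. These are 3 related comparisons, and at these group sizes none could reach 0.05.

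**Figure D1:**
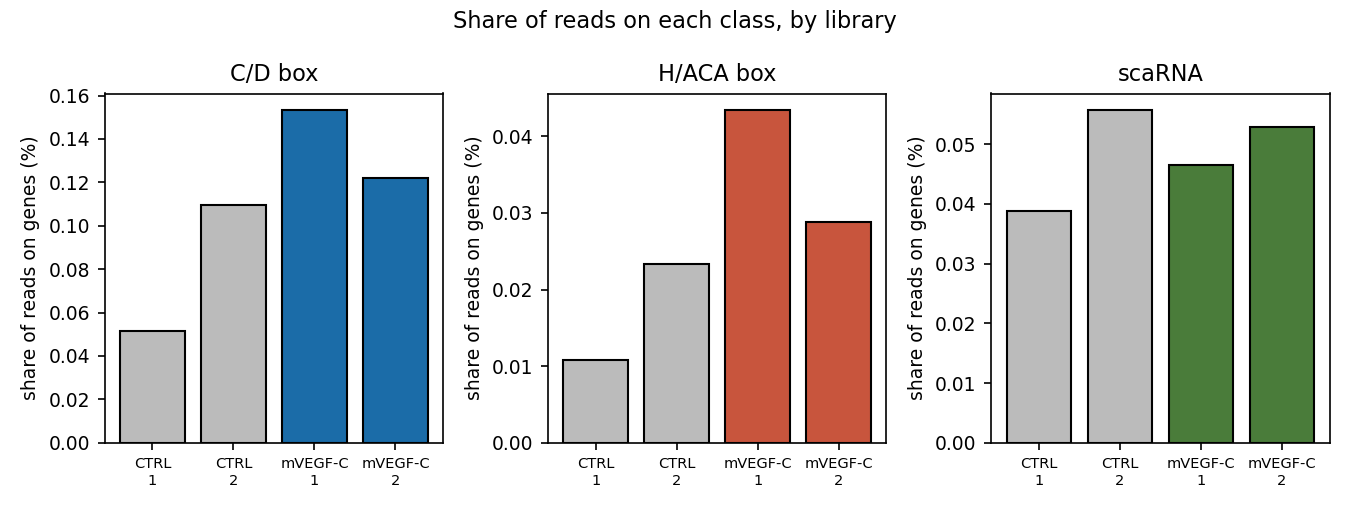
Share of all reads on genes (%, bars from 0) taken by C/D box, H/ACA box and scaRNA members in each of the 4 libraries, grey for AAV-CTRL and color for AAV-mVEGF-C. AAV-CTRL 1 was lowest and AAV-mVEGF-C 1 highest for C/D box (0.0516% and 0.153%) and H/ACA box RNAs (0.0108% and 0.0434%), whereas the scaRNA bars of the groups overlapped.

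More of these RNAs were also seen in some libraries than in others. Of the 118 members, 93, 112, 117 and 111 had 1 or more reads in AAV-CTRL 1, AAV-CTRL 2, AAV-mVEGF-C 1 and AAV-mVEGF-C 2. With 10 or more reads the counts were 71, 91, 110 and 96. The library with the most reads on genes, AAV-CTRL 1, had the fewest members, and at the depth of the shallowest library 90.5 members would be expected in it against 117.0 in AAV-mVEGF-C 1. Over all genes the same 2 values were 20640.5 and 36894.3, a larger gap in proportion, so fewer genes in AAV-CTRL 1 was not particular to the members. Unlike the members, all genes were not required to have 10 reads. Of the 25 members at 0 reads in AAV-CTRL 1, 2 had reads there under an overlapping identifier of the same name. For the other 23 the counts allow up to 3 reads each, or 0.0671 CPM, counting error only.

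All 17 copies of Snord116, a family known from an imprinted cluster active in neurons, were listed at 0 in every library. They were among 27 named genes at 0 everywhere, and 5 more had fewer than 10 reads. Just under the limit were Snord88a with 9.9 reads and Snord42b with 5 reads, and just over it were Snord19 with 10.91 reads and Snord92 with 12 reads.

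No member passed an adjusted p of 0.05 by the quasi-likelihood test of edgeR, adjusted after Benjamini and Hochberg over all genes tested (0 of 97 members tested, against a background of 0% of 19806 genes). At an unadjusted p under 0.05, 17 members were higher after AAV-mVEGF-C and 0 were lower, where the background over all genes tested was 1.46% higher and 1.18% lower. The filter on low counts removed 21 members (17 C/D box, 2 H/ACA box, 2 scaRNA), each with at most 46.6 reads. A member that passed it through the higher group had to differ to some degree, so the counts over tested members are descriptions. Of these 97, 96 had a log2 fold change above 0, against 50.4% of all genes. Both AAV-mVEGF-C libraries exceeded both AAV-CTRL libraries for 71 of the 97, against 16.7% of all genes, and the reverse held for 0, against 15.2%. Over all 118 members, tested or not, 78 were higher without overlap, 0 were lower and 40 overlapped. The shares of all genes given above cover tested genes only, so this wider count has no like background.

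The median log2 fold change was 1.33 for the 51 C/D box members tested, 1.29 for the 39 H/ACA box members and 0.31 for the 7 scaRNAs, beside 0.0 over all genes. The differences depended on which libraries were compared. Over the 97 members, the median difference in log2 CPM between AAV-mVEGF-C 1 and the controls was 2.48 (AAV-CTRL 1; 96 members higher) and 0.88 (AAV-CTRL 2; 92 higher). For AAV-mVEGF-C 2 it was 1.88 (AAV-CTRL 1; 93 higher) and 0.29 (AAV-CTRL 2; 76 higher). Within groups it was 1.59 between the AAV-CTRL libraries (library 2 minus 1) and 0.59 between the AAV-mVEGF-C libraries (library 1 minus 2). The difference within AAV-CTRL thus exceeded both differences from AAV-CTRL 2 and was smaller than both from AAV-CTRL 1. For the 7 scaRNAs alone the direction also depended on the libraries, with a median of 0.89 for AAV-mVEGF-C 2 against AAV-CTRL 1 and -0.09 for AAV-mVEGF-C 1 against AAV-CTRL 2 (3 of 7 higher). AAV-CTRL 1 was the lowest library for 83 of 97 members and AAV-mVEGF-C 1 the highest for 85.

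Leaving out AAV-CTRL 1 lowered the median over members to 0.64, with 2 members called by edgeR (adjusted p under 0.05) and a background of 1.85% of genes. Without AAV-CTRL 2 the median was 2.42, with 58 members called and a background of 9.19%. Without AAV-mVEGF-C 1 it was 0.86, with 0 members called, 1 at an unadjusted p under 0.05, and a background of 0.0097%. Without AAV-mVEGF-C 2 it was 1.60, with 1 member called and a background of 0.284%. In each of these fits the lone library of a group was taken to vary like the other group's libraries.

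**Figure D2:**
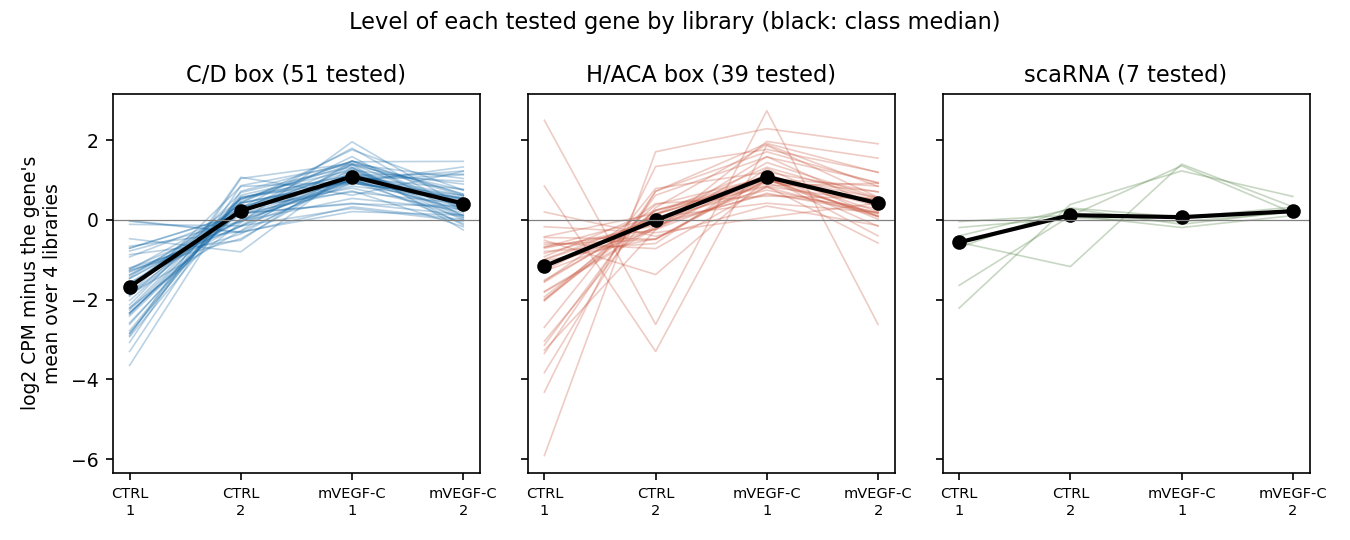
Each thin line joins the values of one tested member in the 4 libraries (CTRL, AAV-CTRL; mVEGF-C, AAV-mVEGF-C), as log2 CPM minus that gene's mean over the libraries, and black marks the class median. The C/D box median ran from -1.68 in AAV-CTRL 1 to 1.09 in AAV-mVEGF-C 1 and the H/ACA box median from -1.16 to 1.08, while the scaRNA median stayed between -0.56 and 0.22.

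Among C/D box members, Snord17 took the most reads. It stood at 231, 494, 580 and 560 CPM (AAV-CTRL 1 and 2, AAV-mVEGF-C 1 and 2), so AAV-CTRL 1 alone was far below the rest (log2 fold change 0.65, SE 0.35, edgeR adjusted p = 0.999). Snord22, hosted by Snhg1, was at 40.3, 121, 202 and 157 CPM, and its groups did not overlap although the controls differed by more than AAV-CTRL 2 and AAV-mVEGF-C 2 did. Snord15b and Snord15a both lie in Rps3, the gene of a small-subunit ribosomal protein. Snord15b was at 147, 248, 368 and 303 CPM and Snord15a at 80.8, 78.2, 106 and 85.4 CPM. Their log2 fold changes were 0.76 (SE 0.28) and 0.27 (SE 0.17), and the difference between them was not tested.

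Snord21 of Rpl5 was at 5.57, 18.8, 32.3 and 23.5 CPM, with a log2 fold change of 1.2 (SE 0.54). By smallest unadjusted p, the leading C/D box members were Snord80, Snord16a and Snord99. Snord80 measured 0.648, 1.16, 3.63 and 2.52 CPM (log2 fold change 1.77, SE 0.57). Its unadjusted edgeR p was 0.0201 and its adjusted p 0.999. Snord16a, from Rpl4, measured 0.939, 1.74, 5.0 and 2.99 CPM (1.58, SE 0.54), and Snord99 measured 1.48, 1.92, 6.89 and 2.87 CPM (1.53, SE 0.54). In all of these the groups did not overlap, and AAV-mVEGF-C 1 was the highest library.

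The 4 members within Rpl13a differed among themselves. Snord33 was at 7.11, 16.1, 33.1 and 19.4 CPM, Snord32a at 0.492, 5.69, 8.86 and 6.93 CPM, Snord34 at 0.313, 1.95, 2.86 and 2.21 CPM, and Snord35a at 2.35, 1.92, 2.76 and 2.58 CPM. The groups did not overlap for any of them, but the spread over libraries reached 4.03 log2 units for Snord32a and 0.51 for Snord35a. Their host Rpl13a stood at 938, 730, 602 and 783 CPM, highest in the library where Snord32a, Snord33 and Snord34 were lowest.

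AAV-CTRL 1 was also the lowest library for C/D box members known for a role in processing of ribosomal RNA. Snord118 (U8), which has its own gene and takes part in maturation of the large ribosomal subunit's RNA, was at 0.827, 2.32, 6.87 and 3.18 CPM (log2 fold change 1.68, SE 0.66). Its unadjusted edgeR p was 0.0422 and its adjusted p 0.999. Snord13, likewise without a host, was at 0.0894, 1.45, 2.17 and 2.21 CPM (1.52, SE 1.14). Snord14c and Snord14d, both within Hspa8, which encodes a chaperone, were at 0.626, 2.96, 7.63 and 2.68 CPM and at 1.90, 2.47, 6.28 and 2.84 CPM. The groups overlapped for Snord14c and not for Snord14d.

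Among H/ACA box members, Snora81 took the most reads and had the smallest p-value of all members. It measured 17.9, 26.5, 73.3 and 51.7 CPM, with group means of 22.2 ± 6.10 and 62.5 ± 15.2 (SD, n = 2 each). Both AAV-mVEGF-C libraries were well above both controls (log2 fold change 1.5, SE 0.27). The unadjusted edgeR p was 0.00144 and the adjusted p 0.903, whereas DESeq2 gave an adjusted p of 6.04e-05. It was the 1 member that DESeq2 called among 97 with an adjusted p, against a background of 0.397% of genes. Without single libraries the edgeR adjusted p ranged from 0.000224 (without AAV-CTRL 2) to 1.0 (without AAV-mVEGF-C 1), and the log2 fold change from 1.22 to 1.82. Its call thus depended on the tool and on the library.

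Snora73a and Snora73b, known as the E1/U17 snoRNAs of early ribosomal RNA cleavage, both lie in Snhg3. Snora73b measured 19.1, 32.1, 41.1 and 35.0 CPM, and Snora73a 7.22, 28.1, 32.0 and 30.7 CPM, with AAV-CTRL 1 lowest in each. They are close copies, so reads may have been divided between them. Snora74a, at 19.7, 12.9, 21.9 and 15.6 CPM, overlapped between the groups (log2 fold change 0.20, SE 0.29). Snora64 of Rps2 measured 3.55, 16.1, 27.4 and 22.4 CPM (1.35, SE 0.64). Snora7a measured 8.92, 13.3, 23.3 and 16.5 CPM (log2 fold change 0.84, SE 0.30) and Snora23 measured 2.41, 5.11, 13.1 and 7.85 CPM (1.49, SE 0.47). Their unadjusted edgeR p-values were 0.0289 and 0.0193, and both had an adjusted p of 0.999.

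Snora16a and Snora43 each have overlapping identifiers between which the reads alternated by library. One Snora16a identifier held 0, 358, 613 and 379 reads and the other 80.6, 0, 83.7 and 0. Summed, Snora16a was at 1.81, 10.4, 17.8 and 11.9 CPM. One Snora43 identifier held 0, 23, 53 and 27 reads and the other 21, 0, 0 and 0, and together they gave 0.469, 0.668, 1.35 and 0.851 CPM. The value of a single identifier therefore does not describe these RNAs.

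The tested scaRNAs divided by length. The 4 of 200 bases or longer varied least, and they also had the highest levels, so length and level were not separated here. Scarna10 measured 249, 278, 225 and 278 CPM (log2 fold change -0.07, SE 0.18), Scarna6 measured 33.7, 39.8, 37.3 and 43.8 CPM (0.14, SE 0.18), and Scarna13 measured 50.5, 80.9, 61.9 and 77.8 CPM (0.09, SE 0.26). Scarna2, which guides modification of the U2 small nuclear RNA, measured 68.7, 136, 116 and 138 CPM (0.31, SE 0.32). The groups overlapped for all 4, and leaving out AAV-CTRL 1 turned Scarna2 to -0.12 and Scarna13 to -0.23. The shorter Scarna3a measured 0.335, 2.29, 4.16 and 2.65 CPM (1.38, SE 0.88), and Scarna3b 0.335, 1.25, 3.06 and 1.32 CPM (1.48, SE 0.85), and their groups did not overlap. The same held for Scarna8, of 131 bases (1.89, SE 0.76). Over all 9 scaRNAs, 4 were higher without overlap and 5 overlapped, so not every short one separated the groups.

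**Figure D3:**
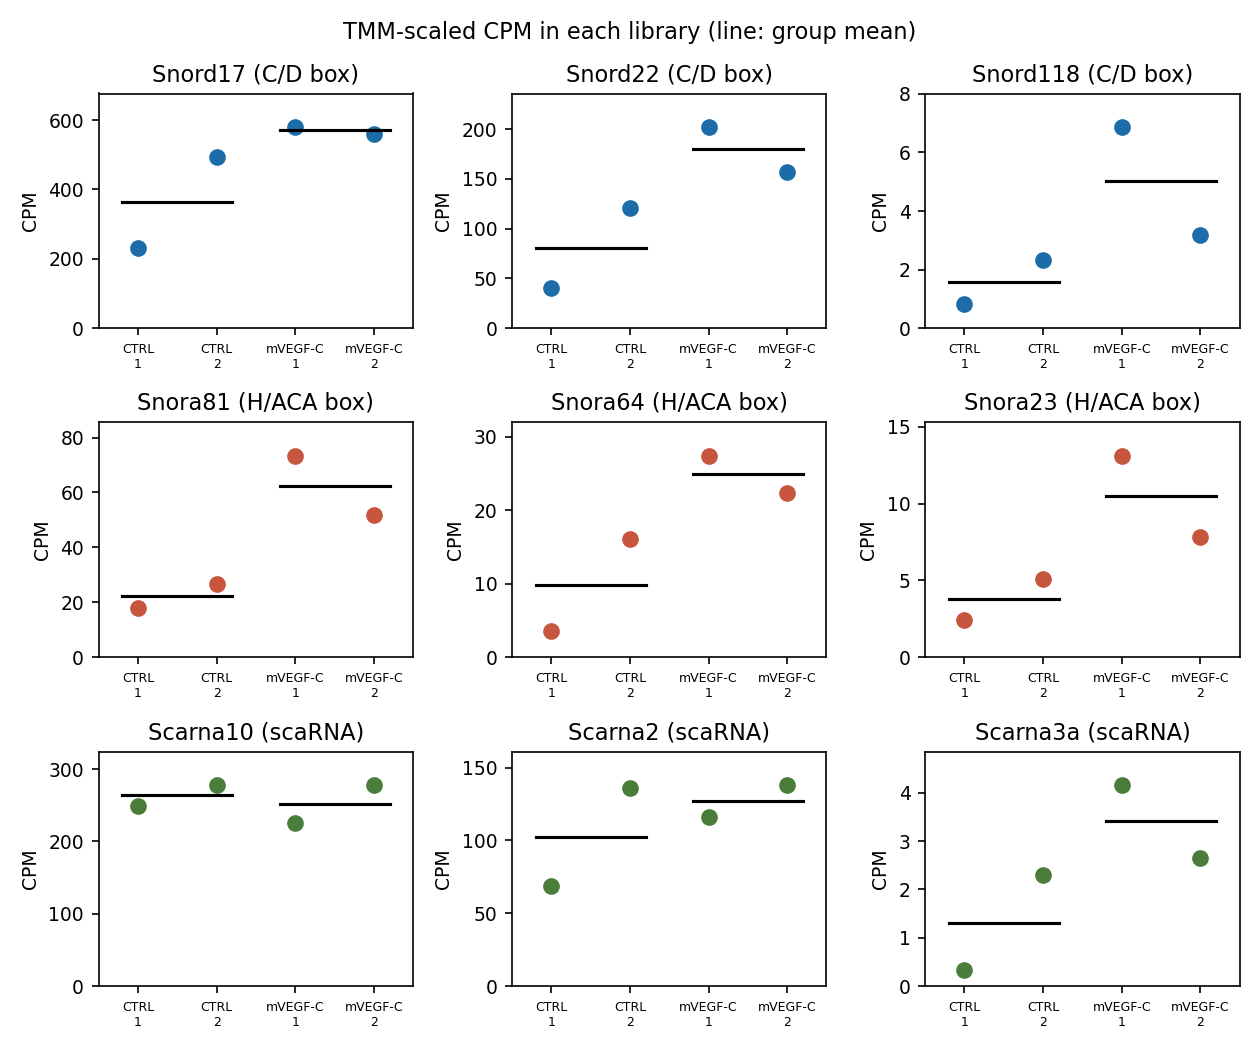
TMM-scaled CPM (axes from 0) of 9 members in the 4 libraries (CTRL, AAV-CTRL; mVEGF-C, AAV-mVEGF-C), 1 point per library with a line at each group mean. Snora81 separated the groups (17.9 and 26.5 against 73.3 and 51.7), Snord17 was low in AAV-CTRL 1 alone (231), and Scarna10 stayed between 225 and 278.

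All members were then divided by length, in bands chosen after the values had been seen. Members under 100 bases took 0.00318%, 0.0114%, 0.0221% and 0.0127% of reads, a ratio of 2.39 between group means. Those of 100 bases or more but under 200 took 0.0346%, 0.0647%, 0.109% and 0.0774%, a ratio of 1.87. Those of 200 bases or longer took 0.0635%, 0.112%, 0.113% and 0.113%, a ratio of 1.28, with the last 3 libraries nearly equal. Each of the 3 gave an exact two-sided permutation p = 0.333. Median log2 fold changes of the tested members were 1.36, 1.35 and 0.31, so the bands under 200 bases had nearly the same median. The longest band holds the 4 long scaRNAs, with a median of 0.12, and 3 snoRNAs, Snord17 (0.65), Snora73a (0.83) and Snora73b (0.57), whose groups did not overlap.

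Across the 97 tested members, Spearman's rho between length and the spread over libraries was -0.37, and that between mean log2 CPM and the spread was -0.48. Length and level were themselves related (rho 0.48). These are descriptions across genes of the same 4 libraries, which share depth and preparation, and the part of each was not tested.

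**Figure D4:**
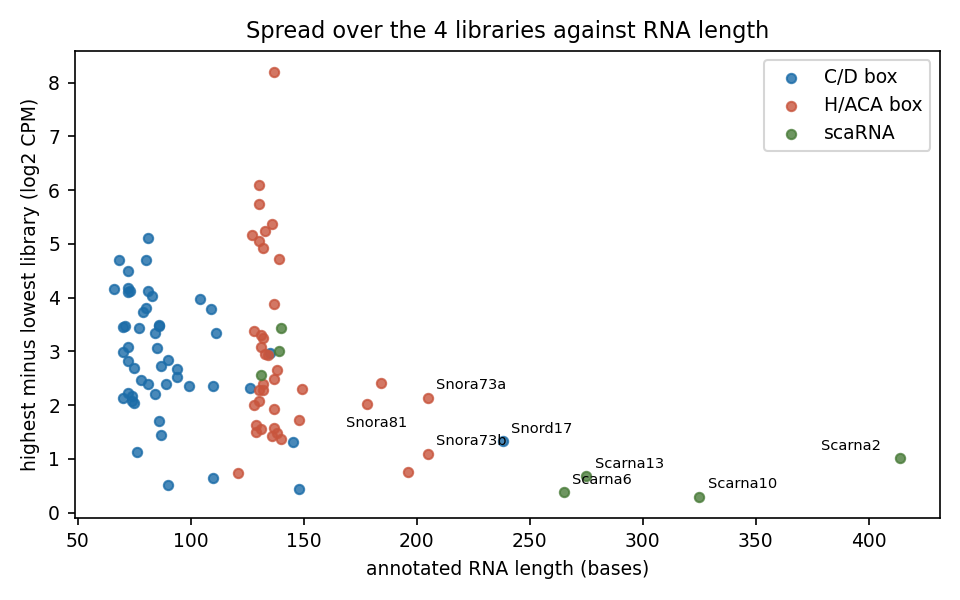
Highest minus lowest library (log2 CPM) of each tested member against annotated length in bases, colored by class. The 4 long scaRNAs lie at or below 1.01 log2 units, while members under 100 bases have a median of 2.99 and the highest point, at 8.2, is a Snora16a identifier at 0 reads in AAV-CTRL 1, where its overlapping identifier held 80.6 reads.

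Most host genes differed less between libraries than the RNAs they carry. For 88 tested members with a tested host (67 hosts), the median log2 fold change was 1.33 for the members and -0.08 for the hosts, which ranged from -0.62 to 1.15. Of the other tested members, 7 had no host in the annotation and 2 had a host that was not tested. Of the hosts, 1 was higher and 0 were lower at an unadjusted edgeR p under 0.05, beside 1.46% and 1.18% of all genes. The 1 was AC121821.1, the noncoding host of Snora74a (log2 fold change 0.69, SE 0.28). In 84 of 88 pairs the small RNA had the larger log2 fold change. Members that overlap a host exon are included, and the pairs were not split by this. The highest host value was that of Dancr, at 3.2, 8.97, 16 and 10.9 CPM, above the 0.56 of its Snora26. The median spread over the libraries was 2.66 log2 units for members and 0.51 for hosts. For every 100 reads of the host, the members had a median of 0.375, 2.08, 5.25 and 2.49 reads in AAV-CTRL 1, AAV-CTRL 2, AAV-mVEGF-C 1 and AAV-mVEGF-C 2.

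Eif4a2, the host of Snora81, was at 212, 235, 255 and 229 CPM (log2 fold change 0.11, SE 0.16), and its groups overlapped. Snora81 had 8.44, 11.2, 28.7 and 22.6 reads for every 100 of this host. It overlaps an exon of some Eif4a2 transcript, so its reads cannot be told apart from reads of the host's RNA.

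The 26 members in ribosomal protein genes had a median of 1.25 against -0.28 for their 20 hosts. Among the noncoding hosts, Gas5, whose spliced RNA is broken down when translated, was at 69.7, 83.2, 99 and 75.5 CPM (log2 fold change 0.19, SE 0.20). Its Snord47 was at 0.536, 4.33, 6.33 and 5.14 CPM. Snhg12 was at 14.7, 18.8, 21.3 and 18.5 CPM (0.25, SE 0.22), and its Snora44 at 5.68, 7.72, 16.2 and 9.71 CPM. Of the 14 noncoding hosts on the list, 12 had a log2 fold change above 0 (50.4% of all genes). Without overlap, 8 were higher and 0 lower, beside 16.7% and 15.2% of all genes. On this list 1 gene, Snhg20, reached an unadjusted edgeR p of 0.0386 (14.0, 27.6, 38.1 and 37.0 CPM, adjusted p = 0.999). Snhg20 is not the host of any tested member. An unadjusted p under 0.05 in this direction was found for 1.46% of all genes.

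**Figure D5:**
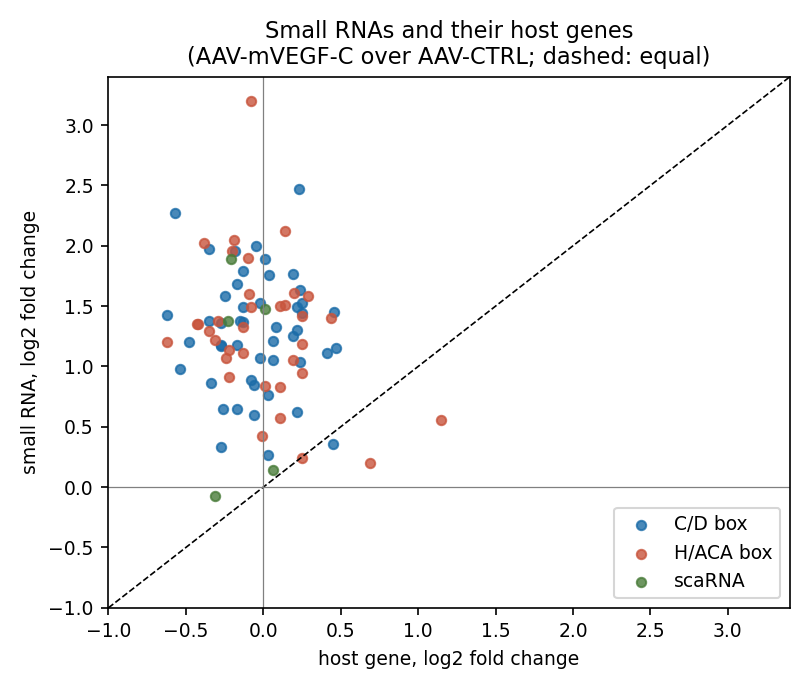
Log2 fold change (AAV-mVEGF-C over AAV-CTRL) of each tested small RNA against that of its host gene, with a dashed line at equality. Of 88 points, 84 lie above the line. The hosts range from -0.62 to 1.15, with a median of -0.08, and all but 1 of the small RNAs lie above 0.

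Of 24 tested genes of proteins that build and bind these RNAs, 0 had an unadjusted edgeR p under 0.05 in either direction, and the median log2 fold change was -0.14 (range -0.62 to 0.31). Fbl, the methyltransferase fibrillarin, was at 46.7, 41.1, 43.6 and 38.8 CPM, and Nop56, a core C/D protein, at 74.5, 75.5, 63.5 and 73.5 CPM. Dkc1, the pseudouridine synthase dyskerin, was at 23.9, 26.0, 22 and 24.2 CPM. Nhp2, its H/ACA partner, was at 39.6, 27.3, 23.2 and 24.3 CPM (log2 fold change -0.49, SE 0.23). Its unadjusted edgeR p, the smallest of the list, was 0.0729. For these 24 genes, 20 had a log2 fold change below 0. Without overlap, 10 were lower and 1 was higher, against 15.2% and 16.7% of all genes.

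Other small noncoding RNAs with 10 or more reads (35 genes) gave a comparison outside the name rule, though they include the snoRNA U3. Of 29 tested, 9 were higher and 0 lower at an unadjusted edgeR p under 0.05, beside 1.46% and 1.18% of all genes. Of these 9, 4 are the near-identical Rnu3b copies of U3, so they are not separate RNAs from outside the snoRNA class. Without overlap, 22 of the 29 were higher and 1 lower, beside 16.7% and 15.2% of all genes. By the adjusted threshold 0 passed, and the median log2 fold change was 0.89. The smallest edgeR p was that of Rnu11, the U11 RNA of the minor spliceosome, at 15.0, 13.2, 57.5 and 27.2 CPM (log2 fold change 1.59, SE 0.36). Its unadjusted edgeR p was 0.00446 and its adjusted p 0.999, whereas DESeq2 gave an adjusted p of 0.00132. DESeq2 called 2 genes of the list (0.397% of all genes), Rnu11 and an identifier of Rnu3a with reads in AAV-CTRL 1 alone, where an overlapping identifier held the reads of the other libraries. The 4 Rnu3b copies of U3, the C/D box RNA of early ribosomal RNA processing, had the library order of the Snord genes. Rnu3b2 was at 9.43, 24.1, 70.9 and 36.4 CPM, with near-identical copies among which reads may be divided. Not every RNA of this list had this order. Rpph1, the RNA of RNase P, was at 3459, 3650, 3386 and 3794 CPM, and Rn7sk, which holds a transcription elongation factor inactive, was at 11847, 10427, 9046 and 11164 CPM. Rmrp, the RNA of RNase MRP, was at 455, 1267, 1253 and 1340 CPM, low in AAV-CTRL 1 alone. Terc, the H/ACA RNA that is the template of telomerase, was at 3.44, 3.75, 2.20 and 3.4 CPM under its main identifier, with a log2 fold change of -0.36 (SE 0.42). Summed with a second identifier of this name it was at 3.44, 3.89, 2.32 and 3.85 CPM, and the groups overlapped.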

How the data were processed

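Total RNA of sorted dural CD45+ cells was sequenced with a stranded low-input kit as 2 libraries per group, each read as a pool of 10 to 12 mice. The authors deposited estimated counts per gene, not normalized, of which 8.18% were not exactly whole, and the authors deposited TPM for the same genes. Per the labels, processing named FastQC, Trimmomatic, DRAGEN and Picard and build mm10, and the counting program and annotation are not given in the sources used here. Estimated counts were rounded. Of 55401 identifiers, 54349 occur in GENCODE M21, with the same version, which gave positions, hosts and sequences. Hosts were matched by identifier without version.

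edgeR 4.0.16 (R 4.3.3) was run on 19806 genes (filterByExpr, TMM, quasi-likelihood test, no covariate, Benjamini-Hochberg adjustment over all of them, threshold 0.05). The standard error is the log2 fold change over the square root of F. DESeq2 1.42.0, the tool named by the authors, and limma 3.58.1 on log2 TPM were alternatives. Log2 CPM used a prior count of 2. The scripts were tested on simulated data. Shares were compared by an exact permutation test, and Wilson intervals are at 95%. P-values of edgeR, DESeq2 and limma rest on the spread between pools, estimated in part from the other genes. The exact permutation p cannot fall below 0.333 with 2 against 2 libraries.

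Members and gene lists were chosen with earlier results of these data known. Genes are named by a rule: the 6 of each class with the highest mean CPM, the 6 smallest unadjusted p in each direction without overlap, members nearest the limit, and listed genes of known role. Snord15a, Snord47 and Snora44 beside hosts, Scarna8 beside the short scaRNAs, and the hosts Dancr (with Snora26) and AC121821.1 were chosen after values were seen. So were Snhg20, Rnu11, Rnu3a, Rnu3b2 and Nhp2 beside their lists, and the length bands. MiRNA host genes were left out of the other small RNAs. Reads per TPM unit were not in proportion to annotated gene length.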

Additional observations from a re-analysis of the deposited data

How the results depend on the processing

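With 2 pools per group, the smallest exact p for a share is 0.333, and depth limits members with few reads. The count of members called (0 in the main test) was 1 with DESeq2 (background 0.397% of genes), 10 with no filter on low counts (0.659%), and 0 to 58 leaving out single libraries. The 17 members at an unadjusted p under 0.05, all higher (1.46% of all genes higher), became 29 with DESeq2 (1.24%), 43 with no filter (1.61%), and 1 to 83 leaving out single libraries. The lowest was without AAV-mVEGF-C 1 (0.504%). The highest was without AAV-CTRL 2 (18.5%), with 82 higher and 1 lower, a Snora43 identifier whose reads were in AAV-CTRL 1 alone. Leaving out single libraries, medians were 0.60 to 2.87 (C/D box), 0.68 to 1.94 (H/ACA box), 0.28 to 1.25 (scaRNA) and 0.73 to 2.15 (other small noncoding RNAs), and 0 to 1 snoRNP protein genes were called. On log2(TPM + 1) and on log2(TPM + 0.1) the scaRNA median was 0.10. Share differences ranged, leaving out single libraries, from 0.028 to 0.0859 (C/D box) and 0.0118 to 0.0264 (H/ACA box) percentage points. The scaRNA share difference was -0.0304 percentage points as share of TPM and -0.00602 to 0.0108 leaving out single libraries. The causes were not tested.

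The pairing of same-numbered libraries is not settled. The sample titles number them as experiments 1 and 2 in both groups, but the column names carry other numbers. Over members, the median differences in log2 CPM were 2.48 and 0.29 between same-numbered libraries, and 1.88 and 0.88 when crossed. Deviations from group means correlated at -0.134 over all tested genes and 0.356 over tested members for same numbers. The replicate block called 0 members, with 22 at an unadjusted p under 0.05, all higher (1.47% of all genes). The crossed pairing, added after seeing the data, called 1 member (background 0.273%), with 40 at an unadjusted p under 0.05, all higher (2.13%).

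For 29 named genes, 200 of 232 alternative values kept direction and call, 25 passed the threshold (21 without AAV-CTRL 2, where 9.19% of all genes were called, and the other 4 for Snora81 under other settings) and 7 changed sign. Of the 200, 13 were over 1.5 times larger and 26 over 1.5 times smaller, 16 of these without AAV-CTRL 1, such as Snord32a (1.36 to 0.46) and Snord13 (1.52 to 0.57). The sign changes were in Scarna10 (0.03 without AAV-CTRL 2, 0.08 without AAV-mVEGF-C 1), Scarna13 (-0.23 without AAV-CTRL 1, -0.07 without AAV-mVEGF-C 2), Scarna2 (-0.12 without AAV-CTRL 1) and Snora74a (-0.06 without AAV-CTRL 2 and without AAV-mVEGF-C 1). Leaving out single libraries these ranged from -0.22 to 0.08, -0.23 to 0.48, -0.12 to 0.90 and -0.06 to 0.52.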

Other observations

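Outside the name rule, 1409 genes are annotated as snoRNA or scaRNA, and 148 of them had 10 or more reads. Together the 1409 took 0.0601%, 0.103%, 0.177% and 0.122% of reads in AAV-CTRL 1, AAV-CTRL 2, AAV-mVEGF-C 1 and AAV-mVEGF-C 2, a ratio of 1.84 between group means (exact two-sided permutation p = 0.333).

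Rnu3a, a U3 gene, also has overlapping identifiers between which reads alternated. One held 1503, 0, 0 and 0 reads and the other 0, 2412, 5779 and 3024, which sum to 33.6, 70.0, 148 and 95.3 CPM.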
